A study of Mus musculus with 8 samples.

Results

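The interferon-induced genes are genes whose transcription rises when a cell responds to an interferon. A set of 45 of them was followed, chosen by symbol and including the Trim, Ifi200 and Schlafen loci, at which mouse strains are known to vary. All probes that carry a member's name on the array were taken. This gave 86 of the 56605 probes measured, for 44 of the 45 genes, and Ifi203 had no probe under that name. The tissue held the cerebral cortex and striatum of 4 male B6 mice (C57BL/6J, the reference strain, each 4 months old) and 4 male BTBR/R mice (BTBRTF/ArtRbrc, which carry the spontaneous mutations T, Itpr3 tf and black and tan), with 1 mouse on each array. The BTBR/R mice were 4 months old except replicate 1, which was 6 months old. The BTBR/R mice came from a resource center and the B6 mice from a commercial breeder, and according to the methods only the former were also kept at another animal facility. The B6 arrays filled slide column 1 and the BTBR/R arrays filled slide column 2, so that strain, source and slide column cannot be told apart. In RNA from whole tissue, fewer cells of a type and less RNA per cell cannot be told apart either.

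Interferons are secreted proteins that warn cells of infection. Type I interferons bind a receptor whose kinases phosphorylate Stat2, which joins Irf9 in the complex ISGF3, and this complex binds the interferon-stimulated response element (ISRE) in the promoters of its target genes. Interferon gamma acts at another element, the gamma-activated site (GAS). The products include sensors of viral RNA and DNA, enzymes that degrade or modify it, GTPases that attack the vacuoles of intracellular parasites, and Isg15, a ubiquitin-like tag. In the uninfected brain, microglia, astrocytes and endothelial cells keep many of these genes at a low basal level.

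The ISRE core, searched on both strands as GAAA, any 2 bases and again GAAA, occurred in 1131 of 32851 mouse promoter windows (3.44%) and in 26 of 40 windows of the members (65%). A window is 300 bases, 250 before and 50 after a transcription start, as RefSeq places it on GRCm38.p6, the assembly of C57BL/6J. Windows were found for 34 of the 45 genes, and 24 of these genes held the core. The GAS core TTCNNNGAA was in 8.3% of all windows and in 8 of the 40 member windows (20%). The 250 bases before the start of 4 genes on which the results below turn are printed 5′ to 3′ on the gene's own strand, with ISRE core matches in capitals. Isg15 holds 3 overlapping matches, Bst2 holds 2 overlapping matches, Igtp holds 1, and Xaf1 holds none here. A match describes these letters only.
Isg15 (chr4:156200819-156201068, minus strand): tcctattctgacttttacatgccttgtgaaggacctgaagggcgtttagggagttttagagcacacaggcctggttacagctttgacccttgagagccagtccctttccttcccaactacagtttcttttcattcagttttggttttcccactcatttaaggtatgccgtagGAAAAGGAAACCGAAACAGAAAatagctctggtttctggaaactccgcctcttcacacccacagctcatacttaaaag
Bst2 (chr8:71537473-71537722, minus strand): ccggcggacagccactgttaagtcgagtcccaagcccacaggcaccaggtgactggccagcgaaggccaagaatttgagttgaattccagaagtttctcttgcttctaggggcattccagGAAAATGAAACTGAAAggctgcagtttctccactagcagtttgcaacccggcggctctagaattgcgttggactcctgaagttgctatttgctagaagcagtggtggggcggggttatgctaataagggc
Igtp (chr11:58199306-58199555, plus strand): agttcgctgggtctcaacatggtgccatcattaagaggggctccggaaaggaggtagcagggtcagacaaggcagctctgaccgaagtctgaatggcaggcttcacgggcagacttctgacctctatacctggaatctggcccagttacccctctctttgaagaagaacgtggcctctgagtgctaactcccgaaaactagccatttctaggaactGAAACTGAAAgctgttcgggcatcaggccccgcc
Xaf1 (chr11:72301379-72301628, plus strand): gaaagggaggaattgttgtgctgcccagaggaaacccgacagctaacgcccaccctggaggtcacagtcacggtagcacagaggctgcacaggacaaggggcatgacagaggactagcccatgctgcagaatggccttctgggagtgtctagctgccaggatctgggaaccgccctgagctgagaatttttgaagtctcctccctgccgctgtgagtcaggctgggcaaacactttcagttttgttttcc

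Levels are given as the scaled signal, which is the log2 processed signal of a probe minus the 75th percentile of its array. They compare arrays for a given probe and not one probe with another. Whether the strains differ in sequence under a probe was not tested, so that a difference at a single probe, as for Irf9, Iigp1 and Xaf1, may be one of hybridization and not of transcript level. Sequence was not tested for Trim12a either, where both detected probes were lower in BTBR/R mice. Changes are BTBR/R minus B6 on the log2 scale. A call required a limma p-value under 0.05, adjusted over all 56605 probes by the Benjamini-Hochberg method, together with a difference of 2-fold or more. Of the 86 member probes, 26 (30.2%) were called, against 22.4% of all probes. The calls were split into 16 higher, against 20.2% of all probes, and 10 lower, against 2.27% of all probes. These counts depend on detection, which the scanner software gives as a flag for a signal well above background. The B6 arrays detected 64.5% to 66.8% of all probes and the BTBR/R arrays 53.5% to 57.2%, and the lowest detected signal was 14.5 to 17.8 on the former and 36.1 to 47.1 on the latter. A dim transcript could therefore be detected in B6 mice at a signal that would not be detected in BTBR/R mice. The software also replaces low signals by a surrogate value, at 17.7% to 20.7% of probes on B6 arrays and 26.8% to 31.0% on BTBR/R arrays. For a probe not well above background, the values, SD and p-value may thus reflect this floor on each array and not differences between mice.

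Detection sorted the member probes into 6 classes. All 8 arrays detected 35 probes of 26 genes. Another 14 probes were seen by all 4 B6 arrays but none of the BTBR/R arrays (16.3% of the member probes, against 6.16% of all probes), and 8 by all 4 B6 arrays with part of the BTBR/R arrays. A single member probe, of Xaf1, was seen by all 4 BTBR/R arrays but none of the B6 arrays, which held for 0.0424% of all probes, and all of these (100%) were called higher. Another 25 probes were detected on no array and 3 on some arrays only. Of the 16 calls in the higher direction, 14 were among the 25 probes detected on no array, where 67.7% of all such probes were called higher, so that these calls give no level of a transcript. The genes Ifi202b, Ifi205, Mx1 and Oas3 were detected on no array by any probe, and Zbp1, a sensor of Z-form nucleic acid, on 3 B6 arrays only.

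**Figure D1:**
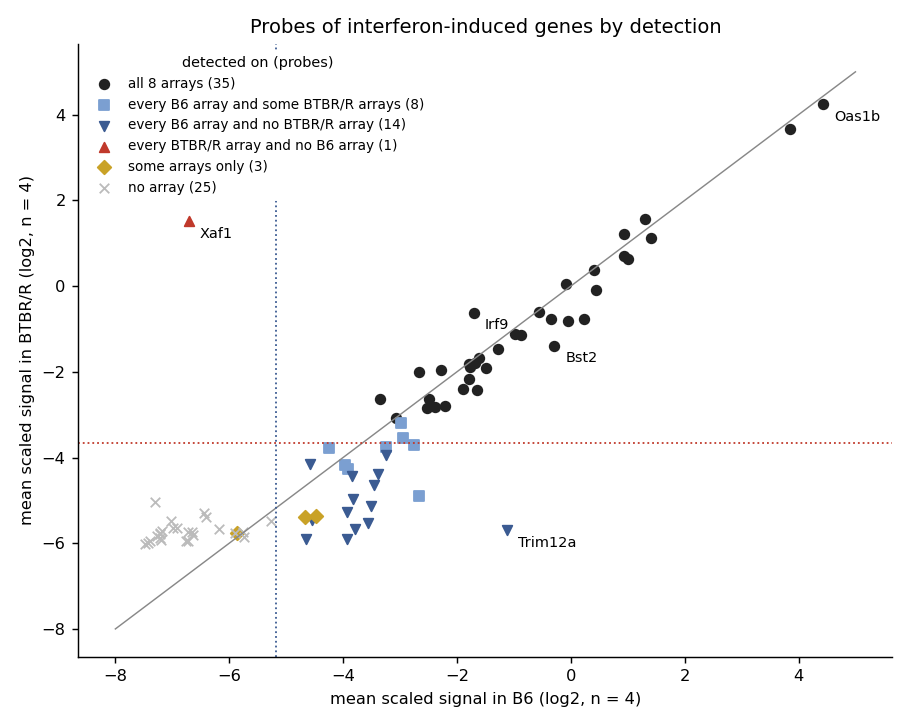
Mean scaled signal (log2) of the 86 member probes in B6 mice (x axis) and BTBR/R mice (y axis), 4 arrays each, with a marker for each detection class. The diagonal marks equal levels and the dotted lines the median detection limit of each strain's arrays. Most probes detected on all 8 arrays lie near the diagonal, and Xaf1 and Trim12a each have a probe far from it.

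Among the 35 member probes detected on all 8 arrays, small decreases prevailed. The test was passed at any size by 19 of them (54.3%, against 26.9% of all probes detected on all 8 arrays), 15 lower (background 13.9%) and 4 higher (background 13%). By sign alone, 28 of the 35 were lower in BTBR/R mice (80%, against 49.7%), and the median change was -0.20, where the median over all detected probes was 0.00. In 19 of the 35 the strains did not overlap, against a background of 32.6%. Only Bst2, which fell (background 1.16%), and one probe of Irf9, which rose (background 1.04%), reached 2-fold (5.71% together, against 2.2%). When the arrays were scaled by their spike-in controls, the median of all detected probes moved to 0.12 and that of the members to -0.08, and with normexp background correction that of the members was -0.073. With spike-in scaling 12 member probes passed the test, 7 lower and 5 higher.

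With each of the 26 detected genes represented by its brightest probe, 12 genes fell (46.2%, against 14.4% of the 18857 gene names so represented), 2 rose (7.69%, against 13.9%) and 12 did not pass the test. The median change was -0.24. Of the 14 genes that passed, 6 no longer did with spike-in scaling (Ifit3, Ifitm3, Oas1b, Iigp1, Irgm1 and Ifi27) and 6 with a floor at the highest detection limit (Ifitm3, Oas1a, Oasl2, Iigp1, Irgm1 and Ifi27). The plot of changes by role shows the antiviral effectors mostly to the left of 0.

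**Figure D2:**
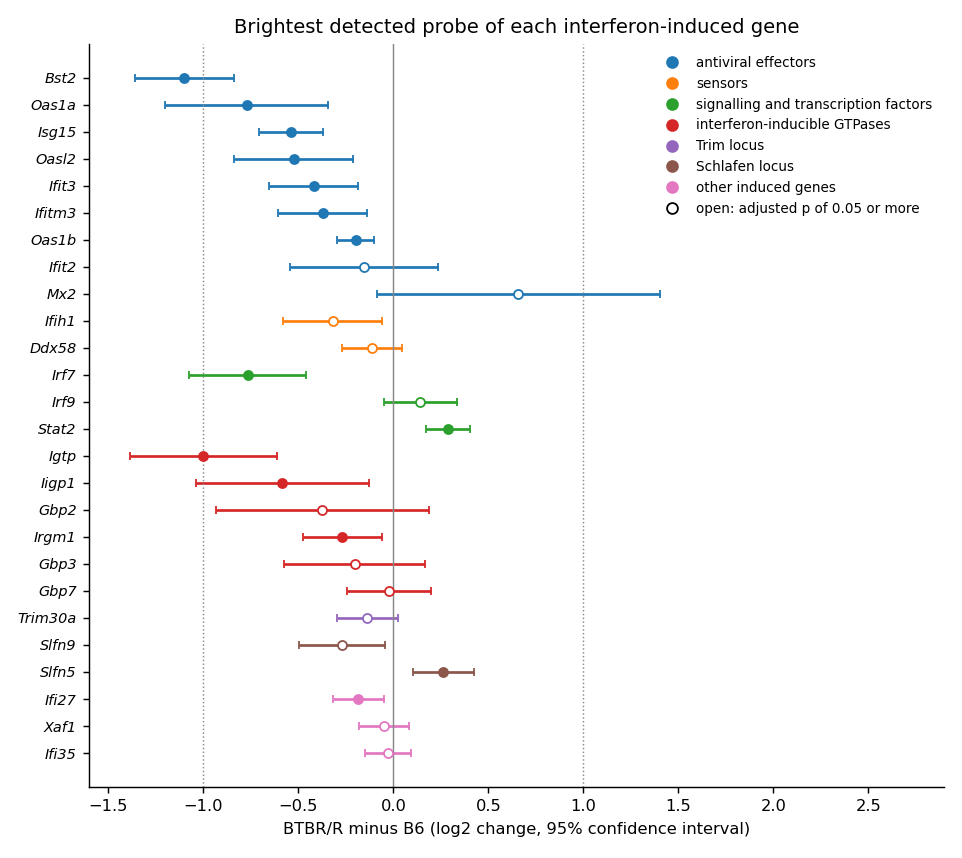
Change between strains (log2, BTBR/R minus B6) of the brightest probe of each of the 26 member genes detected on all 8 arrays, with its 95% confidence interval, coloured by role. Filled points passed the test and dotted lines mark 2-fold. All 7 effectors that passed lie below 0, and Stat2 and Slfn5 are the genes that passed above 0.

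Antiviral effectors were the largest role, with 16 genes, of which 9 were detected on all 8 arrays. Of these, 7 fell in BTBR/R mice, where 14.4% of all such genes fell, none rose, and Ifit2 and Mx2 did not pass. Bst2, or tetherin, which holds budding virus particles on the cell surface, had the largest fall (chr8:74058603-74058662 on mm9, the build of the array's annotation). Its scaled signal was -0.34, -0.25, -0.17 and -0.39 in B6 replicates 1 to 4 and -1.25, -1.24, -1.38 and -1.69 in BTBR/R replicates 1 to 4. Every BTBR/R mouse was therefore below every B6 mouse, and the change was -1.10 (SE 0.11, 2.14-fold lower, limma adjusted p = 0.000133). With normexp background correction the change was -0.87 and with spike-in scaling -0.99, both under 2-fold.

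Isg15, which is conjugated to newly made proteins during infection, had a scaled signal of 0.40, 0.45, 0.43 and 0.51 in the B6 mice and -0.15, -0.10, 0.09 and -0.21 in the BTBR/R mice. The strains did not overlap, and the change was -0.54 (SE 0.07, limma adjusted p = 0.000663). Oas1a, which makes the second messenger that activates RNase L, was at -1.64, -1.76, -1.69 and -1.50 in B6 and at -2.48, -2.13, -2.14 and -2.94 in BTBR/R mice. BTBR/R replicate 4 was the lowest, and the change was -0.77 (SE 0.18, limma adjusted p = 0.0129). Oasl2, a relative of Oas1a, fell by 0.52 (limma adjusted p = 0.0177). Ifit3, a member of the RNA-binding Ifit family, fell by 0.42 (limma adjusted p = 0.0132), and Ifitm3, which blocks virus entry from endosomes, fell by 0.37 (limma adjusted p = 0.0218). Oas1b, the flavivirus resistance gene of mice, was at 4.44 ± 0.04 in B6 and 4.24 ± 0.03 in BTBR/R mice (SD, n = 4 each) and fell by 0.20 (limma adjusted p = 0.00787), whereas its other probe changed by -0.05.

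Mx2, an antiviral GTPase, went the other way without passing the test. Its scaled signal was -2.79, -2.61, -2.62 and -2.66 in B6 and -1.75, -2.52, -1.15 and -2.62 in BTBR/R mice. BTBR/R replicates 1, 2 and 3 were above all B6 mice, replicate 2 narrowly, and replicate 4 lay within the B6 range (change 0.66, SE 0.32, limma adjusted p = 0.144). Ifit2 changed by -0.15 (limma adjusted p = 0.501). Usp18, the enzyme that removes Isg15 from proteins, was at -3.03, -2.81, -2.72 and -2.49 in B6 and at -3.54, -3.78, -3.53 and -3.93 in BTBR/R mice, of which 1 detected it. Its change was -0.94 (limma adjusted p = 0.00121), and it was at least 1.76-fold lower when the BTBR/R detection limit was used where it was the higher value. Rsad2 (viperin) and Ifit1, detected on every B6 array and on 3 and 2 BTBR/R arrays, changed by -0.22 and -0.50 (limma adjusted p = 0.801 and 0.249). Oas2, detected in B6 mice only, changed by -0.60 (limma adjusted p = 0.109).

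**Figure D3:**
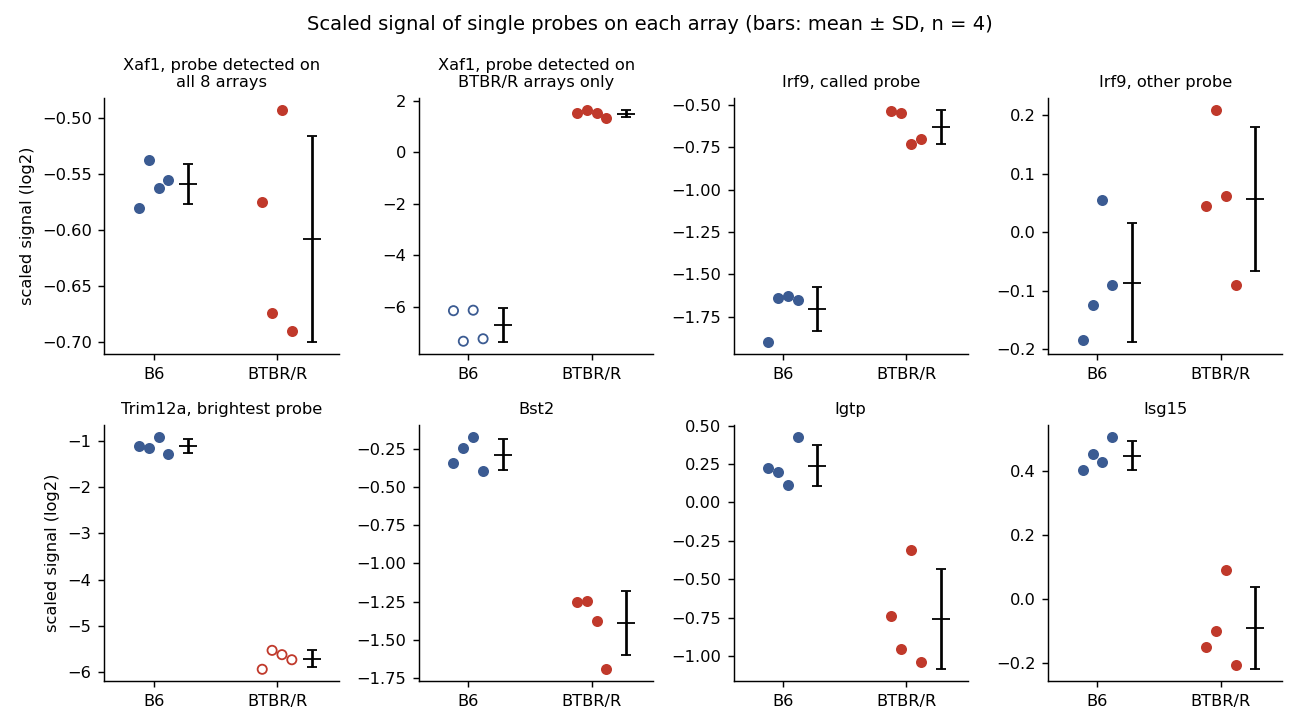
Scaled signal (log2) of 8 probes on each array, by strain, with the mean and SD beside the points (n = 4). Filled points are detected probes and open points were not well above background on any array of that strain, and each panel has its own axis. One Xaf1 probe and one Irf9 probe separate the strains widely and the other probe of each gene does not, while Bst2, Igtp and Isg15 are lower in every BTBR/R mouse.

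The sensors Ddx58 (RIG-I) and Ifih1 (MDA5), which recognize viral RNA in the cytoplasm, did not pass the test by their brightest probes, with changes of -0.11 and -0.32 (limma adjusted p = 0.229 and 0.0547). A dimmer Ddx58 probe detected on all 8 arrays fell by 0.43 (limma adjusted p = 0.00451). Dhx58 (LGP2), their regulator, was at -3.99, -4.005, -3.65 and -4.06 in B6 mice and at -6.10, -5.19, -5.79 and -4.04 in BTBR/R mice, where it was not well above background. BTBR/R replicate 4 reached the B6 range. The probe was called at a change of -1.35 (limma adjusted p = 0.0385), with no fold that the detection limits allow, and leaving out any array other than BTBR/R replicate 4 ended the call, with adjusted p from 0.0693 to 0.0916.

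The transcription factors of the response did not move together. Irf7, which drives the induction of interferon alpha genes and is itself induced, was at 0.02, -0.20, -0.19 and 0.19 in B6 and at -0.77, -0.90, -0.55 and -1.03 in BTBR/R mice. All BTBR/R mice were lower (change -0.77, SE 0.13, limma adjusted p = 0.00265). Stat2, the subunit of ISGF3 that activates transcription, was at 0.84, 0.96, 0.97 and 0.96 in B6 and at 1.25, 1.23, 1.23 and 1.17 in BTBR/R mice. It rose by 0.29 in mice that did not overlap (SE 0.05, limma adjusted p = 0.00245), whereas a dim Stat2 probe detected in 1 BTBR/R mouse changed by -0.21 (limma adjusted p = 0.865).

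Irf9, the DNA-binding subunit of ISGF3, gave different answers at its probes. The middle 30 bases (16 to 45 of 60) of each are shown as given with the array, since the finding turns on which part of the gene was read.
Irf9, called probe (mm9 chr14:56228256-56228315): ggtgaggtattacatagttggcacatgtga
Irf9, other probe (mm9 chr14:56228806-56228865): cctttagaaatgtgagctccaaattaaatt
The called probe was at -1.90, -1.64, -1.63 and -1.65 in B6 mice and at -0.54, -0.55, -0.73 and -0.70 in BTBR/R mice. It rose by 1.07 with no overlap (SE 0.08, 2.11-fold, limma adjusted p = 2.76e-05), and by 0.81 with normexp background correction. The other probe, the brighter of the pair, was at -0.18, -0.13, 0.06 and -0.09 in B6 and at 0.04, 0.21, 0.06 and -0.09 in BTBR/R mice, which overlapped (change 0.14, limma adjusted p = 0.208). Each probe's change differed from that of the other by 0.93 (limma diffSplice adjusted p = 1e-05), just short of the difference of 1 set for a call.

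Interferon-inducible GTPases comprised 7 genes, 6 of them detected on all 8 arrays. Of these 3 fell, none rose and 3 did not pass, beside the 14.4% lower and 13.9% higher of all such genes. Igtp (Irgm3), a guard of intracellular membranes (mm9 chr11:58020927-58020986), was at 0.22, 0.20, 0.11 and 0.43 in B6 and at -0.74, -0.96, -0.31 and -1.04 in BTBR/R mice. All BTBR/R mice were lower. The change was -1.0, by a narrow margin short of 2-fold (SE 0.16, limma adjusted p = 0.00215), and it ranged from -1.15 without BTBR/R replicate 3 to -0.91 without BTBR/R replicate 4. Irgm1, its regulator, fell by 0.27 at the brightest probe (limma adjusted p = 0.047) and by 0.42 at another (limma adjusted p = 0.0172). The guanylate-binding proteins Gbp2, Gbp3 and Gbp7 changed by -0.37, -0.20 and -0.02 without passing, and Gbp6, detected on 3 BTBR/R arrays, by 0.47 (limma adjusted p = 0.199).

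Iigp1 (Irga6), which disrupts the vacuole of Toxoplasma, had 2 probes detected on all 8 arrays that moved apart. The brighter was at -2.54, -1.995, -2.28 and -2.01 in B6 and at -2.55, -3.18, -2.48 and -2.96 in BTBR/R mice. It fell by 0.58 (SE 0.19, limma adjusted p = 0.0486) although B6 replicate 1 lay within the BTBR/R range. The dimmer was at -3.50, -3.20, -3.16 and -3.52 in B6 and at -2.23, -3.38, -2.06 and -2.90 in BTBR/R mice, with a change of 0.70 (SE 0.29, limma adjusted p = 0.099). Here BTBR/R replicate 2 lay within the B6 range. The difference between the probes was 1.29 (limma diffSplice adjusted p = 0.0153). These were the 2 calls among 17 member probes with such a test (11.8%, against 2.43% of all probes tested), and both were lost without B6 replicate 4 and with normexp background correction.

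Xaf1, an interferon-induced gene whose product binds the apoptosis inhibitor XIAP, held the largest difference among the members. The middle bases of 2 of its probes are printed because they differed so widely.
Xaf1, probe detected in BTBR/R mice only (mm9 chr11:72127175-72127234): cacagtcactcatttggctccaaaataaac
Xaf1, probe detected on all 8 arrays (mm9 chr11:72122169-72122228): tttatggactctggaaatcgaagatccaca
The first was at 1.54, 1.67, 1.52 and 1.32 in BTBR/R mice and at -6.15, -7.34, -6.13 and -7.24 in B6 mice, not well above background on any B6 array. Its signal was at least 101-fold higher in BTBR/R mice (means 1.51 ± 0.14 and -6.71 ± 0.66, SD, n = 4 each, limma adjusted p = 5.68e-06). The second was at -0.58, -0.54, -0.56 and -0.56 in B6 and at -0.58, -0.67, -0.49 and -0.69 in BTBR/R mice, a change of -0.05 with a 95% confidence interval from -0.18 to 0.08 (limma adjusted p = 0.529). The third Xaf1 probe was detected on no array.

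The other induced genes also included Ifi27, Ifi35 and Ifi44. Ifi27, which acts at the mitochondrial and nuclear membranes, fell by 0.18 at its brightest probe (limma adjusted p = 0.0361) and by 0.25 at another (limma adjusted p = 0.0103). Ifi35 changed by -0.03 (limma adjusted p = 0.715). Ifi44 was detected in B6 mice only, at -4.44, -4.52, -4.46 and -4.75, and measured -5.37, -5.36, -5.46 and -5.60 in BTBR/R mice (change -0.90, limma adjusted p = 0.000124, with no fold that the detection limits allow).

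Of the 14 member probes that B6 arrays alone detected, all 4 of them each time, 9 were called lower (64.3%, against 20.9% of all probes so detected), a direction that this detection class itself favours. The signal in BTBR/R mice has only an upper limit for these probes. With the detection limit put in its place, Trim12a stayed over 2-fold lower, 3 others were at least 1.11-fold to 1.19-fold lower, and for 5 no fold could be given.

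Trim12a belongs to the cluster of Trim5-related restriction factors, which act on incoming retroviruses. Both of its probes that were detected are shown by their middle bases, since they lie apart in the gene.
Trim12a, brighter probe (mm9 chr7:111448499-111448558): tcacttacatcaggtgggtaaagaccatgt
Trim12a, dimmer probe (mm9 chr7:111452759-111452818): ggcaagagaaggaagacattctcaacaacc
The brighter was at -1.12, -1.16, -0.91 and -1.28 in B6 and at -5.93, -5.52, -5.62 and -5.73 in BTBR/R mice. Its signal was at least 6.03-fold lower in the BTBR/R strain (means -1.12 ± 0.16 and -5.70 ± 0.18, the latter not well above background, SD, n = 4 each, limma adjusted p = 8.77e-07). The dimmer was at -3.70, -3.98, -3.52 and -3.98 in B6 and at -5.86, -5.50, -5.59 and -5.70 in BTBR/R mice, lower on every array with no fold that the limits allow (limma adjusted p = 2.76e-05). Its neighbour Trim34a was at -3.80, -3.24, -3.53 and -3.67 in B6 and at -4.95, -5.64, -5.73 and -5.82 in BTBR/R mice (at least 1.11-fold lower, limma adjusted p = 0.000197). A second Trim34a probe was near -2.67 in B6 mice and at -6.20, -5.78, -2.20 and -5.38 in BTBR/R mice, where replicate 3 alone detected it, above all B6 mice (limma adjusted p = 0.0713). Trim30a, a negative regulator of inflammatory signalling in the same cluster, changed by -0.14 at its brightest probe (limma adjusted p = 0.153). Another of its probes, detected in B6 mice only, changed by -0.99 with no overlap and was at least 1.22-fold lower (limma adjusted p = 0.0175).

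The Schlafen genes, a growth-regulating family in a cluster on chromosome 11, divided. Slfn2 was at -3.62, -3.38, -3.45 and -3.62 in B6 and at -5.01, -4.87, -4.84 and -5.84 in BTBR/R mice (at least 1.14-fold lower, limma adjusted p = 0.000851). Slfn8 was at -3.97, -3.83, -3.96 and -3.96 in B6 and at -6.16, -5.74, -5.81 and -5.92 in BTBR/R mice, with no fold that the limits allow (limma adjusted p = 1.82e-05). For both genes no BTBR/R mouse detected the probe. A dim Slfn9 probe was at -3.38, -3.73, -3.42 and -3.30 in B6 and at -4.49, -5.16, -4.70 and -4.20 in BTBR/R mice (at least 1.19-fold lower, limma adjusted p = 0.00284), while the bright Slfn9 probe, detected on all 8 arrays, changed by -0.27 (limma adjusted p = 0.0602). Slfn5 was at 1.36, 1.30, 1.30 and 1.26 in B6 and at 1.59, 1.71, 1.42 and 1.54 in BTBR/R mice, a rise of 0.26 (SE 0.07, limma adjusted p = 0.0187). A second Slfn5 probe rose by 0.32 (limma adjusted p = 0.00482) and the third changed by -0.06 (limma adjusted p = 0.535).

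Of the member genes of the Ifi200 locus, which encodes sensors of DNA, only Aim2 and Ifi204 were detected, and only in B6 mice. Aim2, which assembles an inflammasome on DNA, was called at a probe with values of -4.57, -5.05, -4.63 and -4.35 in B6 and -6.15, -5.74, -5.80 and -5.91 in BTBR/R mice, the latter not well above background (limma adjusted p = 0.000526, no fold). Its other probe changed by -0.71 and was at least 1.38-fold lower (limma adjusted p = 0.0202). Ifi204 was at -4.36, -3.76, -3.64 and -3.56 in B6 and at -4.46, -5.59, -4.79 and -5.02 in BTBR/R mice, with B6 replicate 1 close to BTBR/R replicate 1 (change -1.14, limma adjusted p = 0.0139, no fold). Without BTBR/R replicate 2 this call was lost (fitted change -0.93, against signals not well above background).

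Mice of the BTBR/R strain differed among themselves more than B6 mice did at these genes. The median SD over the 26 detected genes was 0.09 in B6 and 0.18 in BTBR/R mice, whereas over all detected probes it was 0.08 in both strains. These probes were not matched to the members in brightness, and the detection limit was higher on the BTBR/R arrays. Its part in the spread of the dimmer members was not tested. BTBR/R replicate 3 held the highest BTBR/R value for 16 of the 26 genes (61.5%, against 25.5% of all detected probes), and replicate 4 held the lowest value for 19 (73.1%, against 22.8%) and the highest for none. Among B6 mice, replicate 1 held the lowest value for 13 of the genes (50%, against 28%). In BTBR/R mice the median deviation from the strain mean was 0.16 in replicate 3 and -0.16 in replicate 4, and over all detected probes both were within 0.01 of 0. Relative to the B6 mean, the median gene was at -0.28, -0.24, -0.10 and -0.40 in BTBR/R replicates 1 to 4, so that it was lower in each mouse and least so in replicate 3. The microglial markers of replicates 3 and 4 deviated by 0.02 and -0.08 (median over genes), the astrocyte markers by 0.03 and -0.12 and the endothelial markers by -0.02 and -0.01. Their part in the result was not tested.

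**Figure D4:**
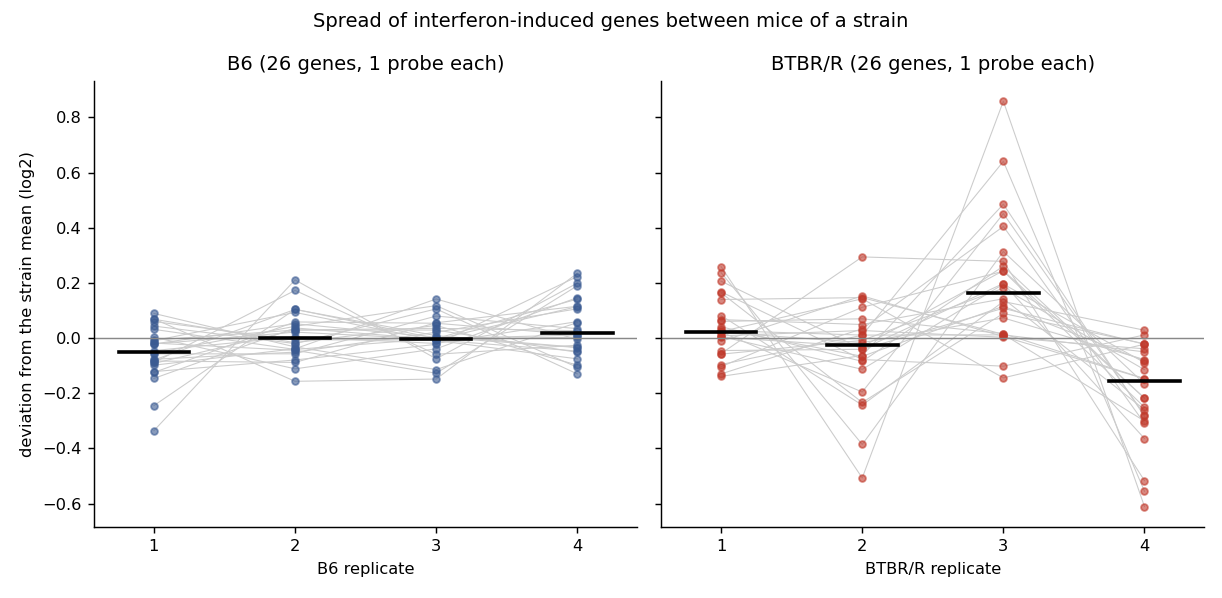
Deviation of each of the 26 detected member genes (brightest probe) from the mean of its strain (log2), for each mouse, with B6 on the left and BTBR/R on the right. Points are genes, grey lines join a gene across mice, and black bars are medians. In BTBR/R mice most genes lie above 0 in replicate 3 and below 0 in replicate 4, and the medians of the B6 mice stay within 0.05 of 0.

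Beside the members stood 151 other genes of the pathway, 131 of which had a probe. Of 96 such probes detected on all 8 arrays, 32 passed the test at any size (33.3%, against 26.9% of all probes so detected), 23 lower (24%, against 13.9%) and 9 higher (9.38%, against 13%). The share called, 2 of 96 (2.08%), was near the background of 2.2%. The called genes were Irgm2, another GTPase of the Igtp family, and Mb21d1 (cGAS), the sensor of cytosolic DNA. Irgm2, annotated 15137 bases from Igtp, was at -1.02, -1.02, -0.94 and -0.75 in B6 and at -2.46, -2.75, -2.05 and -2.85 in BTBR/R mice (change -1.59, limma adjusted p = 0.000225). Mb21d1 was at -1.82, -1.97, -1.75 and -1.92 in B6 and at -2.91, -3.08, -2.87 and -3.25 in BTBR/R mice (change -1.16, limma adjusted p = 4.45e-05). Neither gene's strains overlapped.

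By place in the pathway, 36 further induced genes had a brightest probe detected on all 8 arrays, and 15 fell, 3 rose and 18 did not pass (median change -0.21), beside 14.4% lower and 13.9% higher over all genes. Among 14 receptor, kinase and transducer genes, 3 fell, 1 rose and 10 did not pass (median 0.06), and among 19 sensors, adaptors and interferon regulatory factors 2 fell, 2 rose and 15 did not pass (median 0.09), counts of falls that lie near that background. Of 17 interferon genes with a probe, 8 were detected on no array, 8 on some arrays, and only Ifnl3 on all 8, with a change of -0.14 that did not pass. Of 22 pathway probes that all 4 B6 arrays but no others detected, 6 were called lower (27.3%, near the background of 20.9%). Of these, Isg20, an RNA exonuclease, was at least 1.51-fold lower (limma adjusted p = 0.0106), the Oas relative Oasl1 at least 1.36-fold (limma adjusted p = 0.00238) and Trim12c, beside Trim12a, at least 1.10-fold (limma adjusted p = 0.0404). Trim30d, Gbp11 and the transcription factor Irf1 allowed no fold (limma adjusted p = 2.76e-05, 0.0132 and 0.0153).

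**Figure D5:**
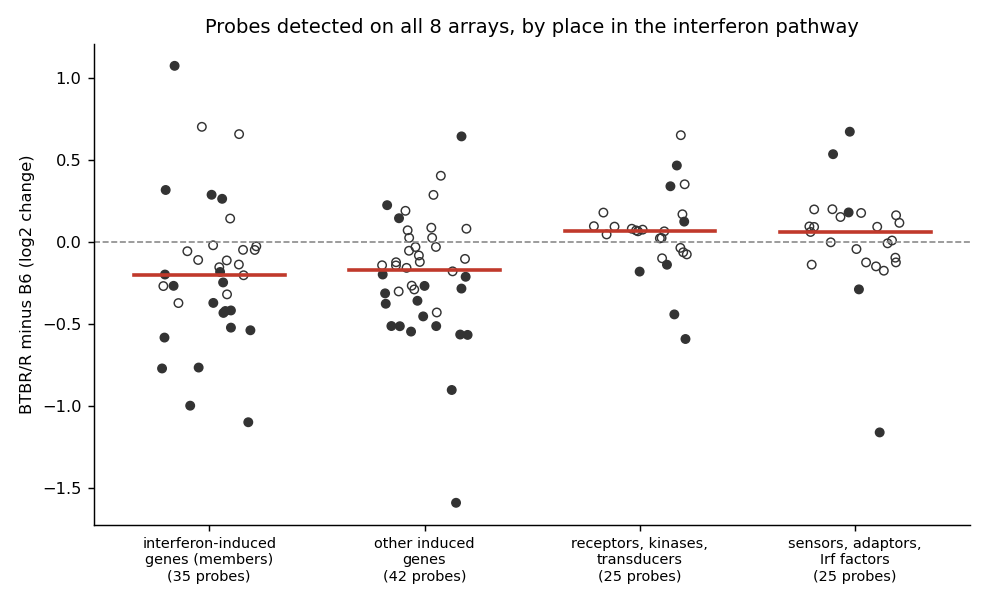
Change between strains (log2, BTBR/R minus B6) of each probe detected on all 8 arrays, for the member genes and for 3 groups of other pathway genes. Filled points passed the test, red bars are group medians and the dashed line is the median of all detected probes. The medians of both groups of induced genes lie below the dashed line and those of the receptors and the sensors lie above it.

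The ISRE core of the promoter windows was set beside the change for the 22 detected member genes with a window. The 16 genes that held the core had a median change of -0.29, with 7 lower and 2 higher past the test, and the 6 genes without it had a median of -0.10, with 2 lower, beside 14.4% lower and 13.9% higher over all genes. Stat2 and Slfn5, which rose, both held the core, and Irf7, which fell, did not hold it in its window.

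The cell types that carry these genes were checked by their markers. Neuronal markers of the labelled tissue were present, with all 6 cortical and all 8 measured striatal genes detected on all 8 arrays. Of 15 microglial genes, all detected, 7 were lower and 1 higher past the test, beside 14.4% lower and 13.9% higher over all genes. By brightest probe, C1qb, C1qc, Tyrobp and Cx3cr1 changed by -1.42, -0.84, -0.76 and -0.71, and the higher gene, P2ry12, by 0.22. Another Cx3cr1 probe changed by 1.71. The summed level of the microglial markers (linear scaled signal, in multiples of the 75th percentile) was 274 to 296 in B6 and 261 to 277 in BTBR/R mice. Much of this sum came from the brightest Siglech and Itgam probes, which changed by -0.09 and -0.01 without passing. Endothelial markers summed to 38.7 to 44.8 and 32.6 to 36.1, with 2 of 8 lower, and astrocyte markers to 465 to 526 and 366 to 420, with 3 of 6 lower. Most of the astrocyte sum came from the Aldoc probes (brightest -0.36). The other genes that fell, Aldh1l1 and Aqp4, changed by -0.31 and -0.28 (limma adjusted p = 0.0159 and 0.0315). Gfap, Gja1 and Slc1a3 changed by 0.01, -0.09 and -0.08 without passing. Of 11 lymphocyte markers 3 were detected on all 8 arrays, with a summed level of 16.6 to 19.4 in B6 and a higher one of 19.9 to 24.0 in BTBR/R mice. Of these, 1 gene, Klrb1c, was higher past the test (change 0.28, limma adjusted p = 0.0311), and Cd79a, Cd8a and Nkg7 were among the markers detected on no array. Of 8 markers of neutrophils and monocytes 3 were detected on all 8, with sums of 14.1 to 16.8 in B6 and 12.4 to 13.6 in BTBR/R mice. Of these, 1 gene, Ly6c2, was lower past the test (change -0.27, limma adjusted p = 0.0239). Most of the lymphocyte sum came from Klrb1c and most of the neutrophil and monocyte sum from Ly6c2. The endothelial marker Ly6c1 changed by -0.29 at its brightest probe, much as Ly6c2 did. Red cell markers summed to 177 to 564 in B6 and 127 to 156 in BTBR/R mice, with 4 of 6 lower. The part of these differences in the members' changes was not tested. Members of the Trim, Schlafen, Ifi200, Oas and Gbp families have close paralogs with which a probe may share signal.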

How the data were processed

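RNA of 8 mice was measured on Agilent 1-colour arrays of 56605 probes, 1 mouse per array, grouped by the strain given with each sample. The authors deposited Feature Extraction 10.7.3.1 intensities of every spot, among them the processed signal, which is background subtracted with low signals replaced by a surrogate. They also deposited log2 values, which differed from the log2 of that signal by a fixed amount on each array, within 0.01 for at least 99.97% of probes.

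Control spots and 36 to 52 flagged outlier spots per array were left out, and 300 probes with 10 spots each were averaged. The scaled signal was fitted with limma 3.58.1 (lmFit, eBayes, diffSplice) in R 4.3.3, adjusted by Benjamini-Hochberg over all probes. Calls needed an adjusted p below 0.05 and 2-fold. Tables and plots were made in Python 3.11.15 with pandas 2.3.3, numpy 2.4.6 and matplotlib 3.10.9. On simulated data for BTBR/R against B6 (56583 probes), 196 of 200 changed and 4 unchanged probes were called. As a call needs 2-fold, these counts do not cover the smaller changes past the test. Nor do they give an error rate for dim probes, since 67.7% of the measured probes detected on no array were called higher. The number of arrays and the signal over background limit the precision. The 75th percentile of the signal was 556 to 572 in B6 and 535 to 589 in BTBR/R mice. A bound on a fold uses, for each dim array, the higher of the lowest detected signal and the probe's own value.

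The members and lists were chosen with earlier results of these data known. Values in each array were given for members with a probe called and detected on every array of a strain or passing diffSplice, otherwise the change of the brightest detected probe. Other pathway genes were named where called and so detected. Isg15, Oas1a, Mx2, Usp18, Irf7, Stat2, Igtp, Slfn5, Ifi44, the second Trim34a probe, the other Irf9 and Xaf1 probes and further dim probes were detailed after their values were seen. Names and mm9 positions are from the array annotation. Of the 86 member probes, 66 were matched to a RefSeq accession, none with another symbol. The alternatives tried were background correction by normexp (offset 50), quantile normalization, other scalings, the authors' log2 values, filters and a floor on dim probes, the methods' t-test, limma options, the median over spots, a replicate block and leaving out each array. Slide and scan were shared by all arrays.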

Additional observations from a re-analysis of the deposited data

Results flagged for a closer look

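A value lying far from the others of its strain, by Dixon's test at the 95% level, was found in 4 of the 28 sets of 4 arrays checked, where chance gives about 1 in 20. For Slfn2, BTBR/R replicate 4 was at -5.84 and the other BTBR/R mice lay between -5.01 and -4.84, all of them below detection. For Slfn8, B6 replicate 2 was at -3.83 and the other B6 mice between -3.97 and -3.96. For Dhx58, B6 replicate 3 was at -3.65 and the others between -4.06 and -3.99. For the called Irf9 probe, B6 replicate 1 was at -1.90 and the others between -1.65 and -1.63, and the change without that mouse was 1.01 (limma adjusted p = 8.35e-05).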

How the results depend on the processing

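The 14 probes with values on every array under the naming rule kept their direction in all alternatives that gave a non-zero value. The 26 member calls became 2 with normexp background correction (1 higher, 1 lower), 11 with quantile normalization (2 higher, 9 lower), 12 with probes that all 4 arrays of either strain detected, 2 with probes detected on all 8 arrays, and 4 with a floor at the highest detection limit, and ranged from 23 to 28 when 1 array was left out. Fewer probes are tested in the filtered fits, and the floor removes values below the limit. The 2 calls detected on all 8 arrays became 0 with normexp (limma; 21 of 35 probes had an unadjusted p below 0.05 and 17 passed the test, none at 2-fold) and 1 with spike-in scaling, and ranged from 2 to 3 without 1 array. The 19 probes past the test became 12 with spike-in scaling, 12 with the floor (4 higher, 8 lower) and 11 with the replicate block, and ranged from 15 to 22. Of the 14 genes past the test by their brightest probe, 3 lost it with normexp and 7 with the block. The median change of -0.20 became -0.073 with normexp and -0.085 with spike-in scaling, and ranged from -0.28 without BTBR/R replicate 3 to -0.16. The 2 pathway calls became 1 with normexp and ranged from 2 to 3. The 2 diffSplice calls became 0 with normexp, where 10 probes had an unadjusted p below 0.05, and ranged from 0 without B6 replicate 4 (8 such probes) to 2. Under normexp Xaf1 (4.50) and Trim12a (-2.31) kept their calls. Apart from the constructions named, the cause was not tested. Samples of the same number did not vary together (correlations -0.07 to 0.16), so that the block, under which Ifi204 and Dhx58 lost their calls (adjusted p = 0.0598 and 0.0812), pairs mice that share only a number.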
